A study of Homo sapiens with 12 samples.

Results

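Genes whose symbol consists of LINC and 5 digits, the symbol given to long intergenic noncoding RNAs, were described across 4 groups of UBQLN1 wild-type and knockout human embryonic stem cells (hESCs). The genes were selected on their raw counts, by at least 30 counts in at least 2 of 8 libraries, and 1 such symbol, LINC01108, was left out by the rule. Of 28278 genes in the table, 1735 carried such a symbol and 114 were chosen. Of the 1734 symbols other than the one left out, 1620 were below the rule and 1000 had 0 counts in every library. The choice used the same counts that are compared here, so numbers and medians over the 114 genes are descriptions and stand beside the same over all tested genes. Of the 114 genes, 69 reached 30 counts in all 8 libraries, 89 reached it in at least 1 library of each of the 4 groups, and 7 reached it in exactly 2 libraries. In 4 genes the count was reached in the libraries of 1 group only, namely LINC00672 in WT, LINC02246 with NAC, and LINC01162 and LINC00174 in untreated KO. In such a gene the choice itself favours a difference between groups. Just inside the rule, LINC01719 and LINC01162 had a second-highest count of 30 and LINC00174 of 31, and just outside it LINC01487, LINC01096 and LINC02587 had a second-highest count of 28.

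The cells were of the hESC line WA26, grown in defined medium on Matrigel, and the UBQLN1-/- cells (KO) were made with CRISPR/Cas9. UBQLN1 codes for Ubiquilin1, a protein that carries ubiquitinated proteins to the proteasome. Of 12 labelled samples, 8 libraries in 4 groups of 2 were analysed. The groups were WT at normal O2, KO at normal O2, KO at 5% O2, and KO with N-acetylcysteine (NAC), an antioxidant. Labels of the NAC samples give no O2 level, while the study describes routine culture at atmospheric O2. Libraries of WT cells with NAC or at lower O2 are not analysed here, and it was not tested whether responses to NAC or O2 depend on UBQLN1. The study describes 2 clones per genotype without naming the clone behind each library, so clone and genotype cannot be told apart. The sources give both a day and many passages as the time at lower O2, so short and long responses to it cannot be told apart. For NAC, the study describes many passages before RNA-sequencing. The passage of the KO libraries without NAC is not given, so NAC and passage number cannot be told apart. The study describes DMSO as the vehicle control for NAC, the sample labels name no vehicle, and the KO libraries at normal O2 without NAC, called untreated below, served as the control. The comparisons of KO with WT, of NAC with no treatment and of 5% with normal O2 all use the KO libraries at normal O2. The study calls the 2 libraries of a group biological replicates, but neither it nor the labels say that they came from separate cultures, so p-values measure only the spread between these samples, which may be technical. Total counts ran from 31236968 to 41639350 per library.

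UBQLN1 itself had 7382 and 7591 counts in the WT libraries, 1559 and 1789 in KO, 2116 and 1530 in KO at 5% O2, and 2392 and 1476 in KO with NAC. Every KO library lay far below both WT libraries, as labelled, with a log2 fold change of -2.29 in KO against WT (edgeR quasi-likelihood test, Benjamini-Hochberg adjusted p = 2.52e-06). The oxygen label was checked on 8 targets of hypoxia-inducible factors, of which 5 were called higher and 0 lower at 5% O2, with a median log2 fold change of 1.77. At an unadjusted p under 0.05, 7 of the 8 were higher and 0 lower. In counts-per-million (CPM) scaled by edgeR's TMM method, PDK1, a kinase that inhibits pyruvate dehydrogenase, was at 12.3 and 11.5 in KO and at 103 and 91.8 CPM at 5% O2. All 8 markers of pluripotent stem cells were present, with a summed level of 5620.0 and 5711 CPM in WT, 5614 and 5427 in KO, 5300.0 and 5235 at 5% O2, and 4734 and 4329 with NAC. DNMT3B was the most abundant of them in every library but the first with NAC, where LIN28A was higher, at 1878 CPM. The markers did not all move the same way with NAC, since DNMT3B was at 2553 and 2455 CPM in KO and 1136 and 1418 CPM with NAC, and ZFP42 at 285 and 285 CPM in KO and 427 and 445 CPM with NAC.

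The first NAC library stood apart in markers of mesenchyme. The summed level of the 8 markers was 936 CPM in the first NAC library and 547 CPM in the second, against 569 and 581 in WT, 601 and 627 in KO, and 512 and 539.6 at 5% O2. THY1, which hESCs also express, was the most abundant of the 8. DCN and LUM were at 47.2 and 3.86 CPM in the first NAC library and at 0 in the other 7 libraries. COL3A1 was at 29.1 CPM in that library, at 0.207 CPM in the second WT library and at 0 elsewhere, while POSTN reached at most 1.46 CPM. The same library was high in hypoxia targets, with DDIT4 at 163 CPM against 15.2 CPM in the second NAC library. The 4 endoderm markers, with SOX17 at 0, summed to 0.420 and 0.311 CPM in WT, 0.271 and 0.607 in KO, 0.294 and 1.50 at 5% O2, and 0.209 and 0.334 with NAC. GATA4 was the most abundant of them over all libraries together. With NAC it was below GATA6 in the first library and below FOXA2 in the second. The 4 mesendoderm markers summed to 5.34 and 4.36 CPM in WT, 6.40 and 7.21 in KO, 8.44 and 9.88 at 5% O2, and 3.84 and 4.78 with NAC. MIXL1 was the most abundant of them over all libraries together, but GSC was above it in several, both NAC libraries among them. Trophoblast was represented by 4 markers, with KRT7 highest and CGA at 0, which summed to 11.6 and 11.4 CPM in WT, 13.1 and 12.8 in KO, 12.2 and 11.7 at 5% O2, and 10.7 and 11.1 with NAC. Markers of endoderm, mesendoderm and trophoblast were thus low in every group. The mesendoderm sum was highest in both libraries at 5% O2, without overlap with the NAC libraries. MIXL1 was at 1.95 and 2.44 CPM in WT, 2.82 and 2.60 in KO, 4.17 and 3.71 at 5% O2, and 0.679 and 1.14 with NAC. KDR, a receptor of endothelial progenitors that hESCs also express, was at 115.7 and 121 CPM in WT, 67.8 and 67.7 in KO, 48.9 and 53.9 at 5% O2, and 81.4 and 71.8 with NAC. Both WT libraries were above all KO libraries. Of neural markers, NES was at 265.5 and 226 CPM in WT, 450.9 and 422 in KO, 212 and 287 at 5% O2, and 126 and 129 with NAC, and PAX6 stayed near 0. NES was highest in both untreated KO libraries and lowest with NAC. The other neural markers followed this in part or not at all, as OTX2 was at 11.1 and 11.2 CPM in untreated KO and 10.9 and 18.2 CPM with NAC, SOX1, also highest in untreated KO, at 9.16 and 11.1 CPM and 2.87 and 7.85 CPM, and POU3F3 at most at 0.548 CPM, in the first NAC library. The part of these markers in the results below was not tested, and in such bulk libraries fewer cells that express a gene and less RNA per cell cannot be told apart. Counts of LINC genes called with NAC are given with and without the first NAC library, while other genes with NAC are given with all libraries only.

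Long intergenic noncoding RNAs are transcripts of RNA polymerase II that are usually spliced and polyadenylated, lie between protein-coding genes and code for no long protein. Many are present at low levels and in few cell types, and pluripotent cells transcribe a characteristic set. Some act on neighbouring genes, some bind proteins or other RNAs, and some symbols first assigned to noncoding RNAs were later found to code for small proteins.

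By RefSeq annotation of GRCh38.p14, 97 of the 114 genes matched by symbol and 17 by an older symbol, 112 were long noncoding RNAs, and 2 are now annotated as coding, LINC00672 under the symbol LASP1NB and LINC01279 under CCDC80. CCDC80 was also counted as a gene of its own, so this match may not describe LINC01279. The 114 genes lay on 22 chromosomes, most on chromosome 1 with 15 genes and chromosome 12 with 11 genes. Not all were intergenic, since the span of 12 genes overlapped that of a coding gene, and 12 genes began within 1000 bases of the start of a coding gene on the other strand. GENCODE v44 gave exon models for 105 genes, with a median of 6 exons, 4132 exonic bases and a GC content of 47.4%. Exons of 60 of them overlapped exons of another annotated gene. The library kit does not mark strand and the counting is described without a strand setting, so reads of overlapping and antisense genes could not be assigned with certainty. Alternate-locus scaffolds of hg38 repeat at least 10% of the 31-base words of 17 transcripts, whose counts are uncertain for that reason too. Among the genes named below these are LINC00665, LINC01090, LINC01521, LINC02315 and LINC00265.

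The 114 genes together held from 22334 to 29643 counts per library, or 0.0665% to 0.0757% of all counts. Their summed level was 681 and 739 CPM in WT, 697 and 714.5 in KO, 727 and 708 at 5% O2, and 708.5 and 746 with NAC. The groups overlapped in this sum. LINC00678 alone made up 22.7% of the counts, lowest in untreated KO and up to 29.9% in the first NAC library. Without it, the sum was 529 and 558 CPM in WT, 572 and 586 in KO, 562 and 567 at 5% O2, and 497 and 549.9 with NAC. The 5 most abundant genes, LINC00678, LINC00665, LINC01224, LINC00428 and LINC01578, held 45.2% of the counts and the first 10 held 57.1%. The median gene was at 2.14 CPM over the 8 libraries, against 18 CPM for all 15916 tested genes, and 28 of the 114 genes averaged at least 200 counts, against 10708 of all tested genes.

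**Figure D1:**
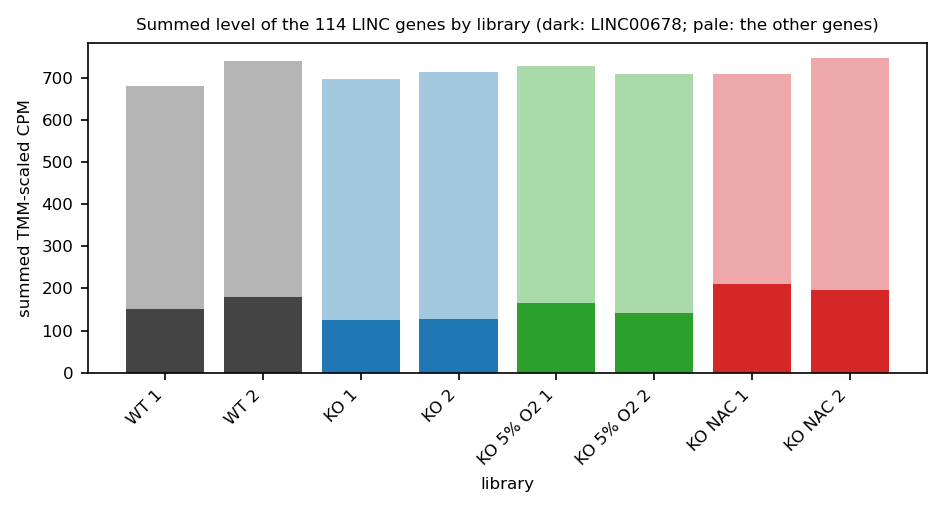
Summed TMM-scaled CPM of the 114 LINC genes in each of the 8 libraries, with LINC00678 in the dark part of each bar and the other genes in the pale part. The sums run from 681 to 746 CPM, and the dark part is tallest in the 2 NAC libraries.

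Per kilobase of merged exons, LINC00428 was the highest at 153 CPM per kb, followed by LINC00678 at 139.6 and LINC00674 at 75.1 CPM per kb. LINC00428 and LINC00674 rest on annotated exons of only 0.227 kb and 0.160 kb, which may not be the whole transcript, whereas LINC00678 has 1.165 kb. Of the exonic bases of LINC00674, 97.5% overlap those of another gene on the same strand, so reads there could not be assigned with certainty. LINC01315 was at 17.3, LINC01224 at 8.56, LINC02315 at 5.94, LINC01578 at 4.99, LINC00665 at 4.81, LINC00623 at 3.86 and LINC00337 at 3.68 CPM per kb. Most of these genes are transcribed in stem cells with little known of their role, while LINC01578, also named CHASERR, lies beside CHD2, which codes for a chromatin remodeller, and is known to repress it from the same chromosome. LINC00665 and LINC01224 lie on chromosome 19 beside zinc finger genes, ZFP14 and ZNF91. LINC00337 begins 276 bases from ICMT on the other strand, so some of its reads may belong to that gene.

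The 2 libraries of a group differed by more than counting noise over all genes, where chi-square over its degrees of freedom was 16.5 in WT, 9.32 in KO, 12.7 at 5% O2 and 30.5 with NAC. For the 114 genes, the median absolute difference in log2 CPM between the 2 libraries was 0.28 in WT, 0.24 in KO, 0.28 at 5% O2 and 0.37 with NAC, and for all genes it was 0.15, 0.13, 0.15 and 0.22. The largest difference within NAC was that of LINC01279, which RefSeq lists under CCDC80, a secreted matrix protein, and which had 150 counts in the first NAC library and 24 in the second, against 14 to 44 counts elsewhere. CCDC80 itself, counted as a separate gene, was at 29.4 and 12.8 CPM with NAC. The length and GC content used for LINC01279 are those of CCDC80 and may not describe its reads. By group means, 20 of the 114 genes were highest in WT, 28 in KO, 31 at 5% O2 and 35 with NAC, and 30, 27, 25 and 32 were lowest in the same groups. No group was highest in most genes.

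Of a hand-made list of LINC genes with a described role, which is not complete, 3 met the rule. LINC00678, which is enriched in pluripotent cells, is described with the comparisons below. LINC00458, also enriched in pluripotent cells, was at 4.20 and 5.16 CPM in WT, 3.79 and 4.35 in KO, 6.43 and 7.29 at 5% O2, and 4.28 and 3.14 with NAC. It was highest in both libraries at 5% O2, above every other library, but was not called there by edgeR (log2 fold change 0.75, standard error 0.23, Benjamini-Hochberg adjusted p = 0.0658). It was called higher at 5% O2 by DESeq2, with a filter of 1 count in any library and with only the 4 libraries compared. With a trend on transcript length and GC content removed, as described below, it was 0.43 at 5% O2 (edgeR, Benjamini-Hochberg adjusted p = 0.372). In that fit LINC00458 was called lower with NAC, at -0.935 (edgeR, Benjamini-Hochberg adjusted p = 0.0138), against -0.13 without the removal. LINC00467, which has been found to code for a mitochondrial peptide, was called with NAC. LINC00261, found beside FOXA2 in endoderm, LINC00473, induced by cyclic AMP, and PANTR1, beside POU3F3 in neural cells, had 0 counts in every library, and LINC00461, a neural transcript, had at most 10 counts. Several genes of the list carry newer symbols in the table and so fall outside the rule. NORAD, which binds Pumilio proteins, was at 220 and 207 CPM in KO and 165.5 and 143 CPM with NAC (log2 fold change -0.47, edgeR Benjamini-Hochberg adjusted p = 0.00167). SMIM30, SMIM26 and NBDY code for small proteins, and with NAC their log2 fold changes were 0.97, 0.68 and 0.48 (edgeR, Benjamini-Hochberg adjusted p = 5.55e-05, 0.000303 and 0.00281). PURPL, a target of p53, BRD3OS and CYTOR passed no test in any of the 3 comparisons, and MTLN and SPAAR had at most 9 counts.

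Groups were compared in 1 edgeR quasi-likelihood fit of all 8 libraries, and a gene was called at a Benjamini-Hochberg adjusted p under 0.05 over the 15916 genes that passed edgeR's filter on low counts. All 114 genes passed that filter. Of them, 21 were called in at least 1 comparison, 1 of these in 2 comparisons, and 93 in none. The median standard error of the log2 fold change was 0.36 for the 114 genes and 0.15 for all tested genes in KO against WT, so that differences of a given size were harder to detect in them.

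**Figure D2:**
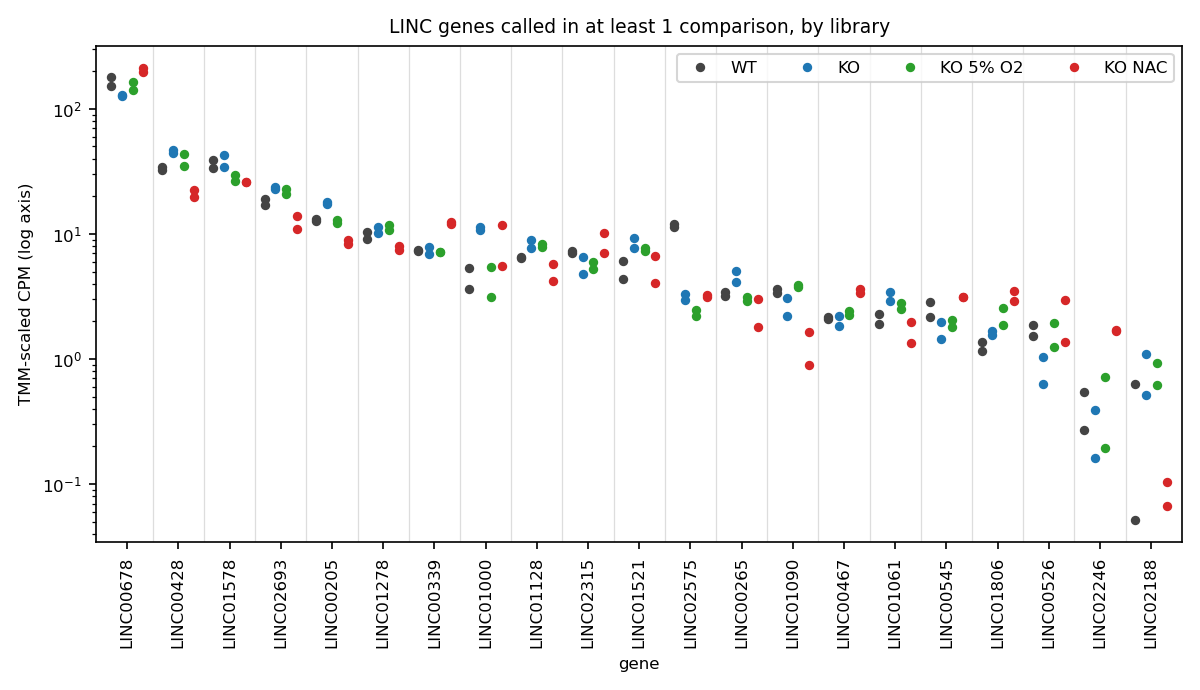
TMM-scaled CPM on a log axis of the 21 LINC genes called in at least 1 comparison, with 1 point per library and colours for the 4 groups, ordered by mean level. LINC02575 is above 11 CPM in the 2 WT libraries and below 3.5 CPM in the other 6, and most other genes differ between the NAC and untreated KO libraries.

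In KO against WT at normal O2, which asks what changes with the loss of UBQLN1, LINC02575 was called lower. It was the only gene of the 114 called, so 0 were higher and 1 lower (0.877%), against 213 higher and 99 lower of all tested genes (1.96%). LINC02575, on chr21:44485571-44491142 on the plus strand of GRCh38, was at 11.9 and 11.3 CPM in WT and at 2.95 and 3.30 CPM in KO. It was at 2.45 and 2.21 CPM in KO at 5% O2 and at 3.13 and 3.24 CPM in KO with NAC. All 6 KO libraries were thus low and apart from the 2 WT libraries, whichever the treatment. The level went from 11.6 ± 0.402 CPM in WT to 3.13 ± 0.247 CPM in KO (SD, 2 libraries each), and within KO the gene was called in neither treatment. The log2 fold change was -1.89 (standard error 0.20, edgeR quasi-likelihood test, Benjamini-Hochberg adjusted p = 0.000424), and the gene was called in all 12 alternative fits, with adjusted p from 6.37e-12 to 0.0160 by Benjamini-Hochberg. Its nearest coding gene, TSPEAR, lies 6751 bases away and was near the limit of detection, at 0.997 ± 0.200 CPM in WT and 0.666 ± 0.323 CPM in KO (SD, 2 libraries each), and was not called.

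At an unadjusted p under 0.05, 8 of the 114 genes were higher and 7 lower in KO (13.2%), and the share was 17.6% for all tested genes. DESeq2 called 3 higher and 2 lower, against 524 higher and 300 lower of all 15916 tested genes. These were LINC00664, LINC01000 and LINC00428 on the higher side and LINC00678 and LINC02575 on the lower side, named after their values were seen. LINC00664, on chromosome 19 beside the zinc finger gene ZNF429, was at 1.35 and 2.23 CPM in WT and at 5.07 and 3.94 CPM in KO, with no overlap (log2 fold change 1.32, edgeR Benjamini-Hochberg adjusted p = 0.0635). LINC01000 was at 3.66 and 5.37 CPM in WT and at 11.3 and 10.8 CPM in KO, also with no overlap (log2 fold change 1.29, edgeR Benjamini-Hochberg adjusted p = 0.0834). The study's own criteria ask for a log2 fold change beyond 1 in either direction at an unadjusted p below 0.05 with DESeq2. Applied here to the edgeR fit, they gave 3 genes higher and 4 lower (6.14%), against 2.57% of all tested genes. At an adjusted p under 0.01 LINC02575 was still called, beside 0.559% of all genes. The median log2 fold change of the 114 genes was 0.07, against -0.0024 for all tested genes. It was 0.03 without the first WT library and 0.12 without the second.

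In KO with NAC against untreated KO, which asks what the antioxidant changes in KO cells, 8 of the 114 genes were called higher and 11 lower (16.7%). Of all tested genes, 3785 were higher and 3315 lower (44.6%), so the share among the 114 genes was below the background. Part of that gap goes with the level of the genes: of those that averaged at least 200 counts, 10 of 28 LINC genes (35.7%) and 59.9% of all genes were called, and of those under 200 counts, 9 of 86 LINC genes (10.5%) and 13.1% of all genes. Over the 114 genes the median log2 fold change was 0.03, against 0.02 over all genes, and its sign was not stable, since it was -0.02 without the first KO library and -0.06 without the second NAC library. DESeq2 called 8 higher and 12 lower, against 3572 and 3523 of all genes. At an unadjusted p under 0.05 the count was 14 higher and 15 lower (25.4%), against 51.3% of all genes, by the study's criteria 3 higher and 5 lower (7.02%), against 9.02%, and at an adjusted p under 0.01 also 3 higher and 5 lower, against 32.2%. The counts rested on the KO libraries, with 5 higher and 7 lower called without the first of them and 3 higher and 4 lower without the second. Calls over all genes also became fewer, with 2641 higher and 2434 lower without the first and 2634 higher and 2397 lower without the second. Without the first NAC library, 10 were higher and 9 lower, and without the second 11 were higher and 13 lower, and 12 and 15 of the 19 genes were among those called. Over all genes, 3480 were higher and 3233 lower without the first NAC library and 4070 higher and 3521 lower without the second.

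**Figure D3:**
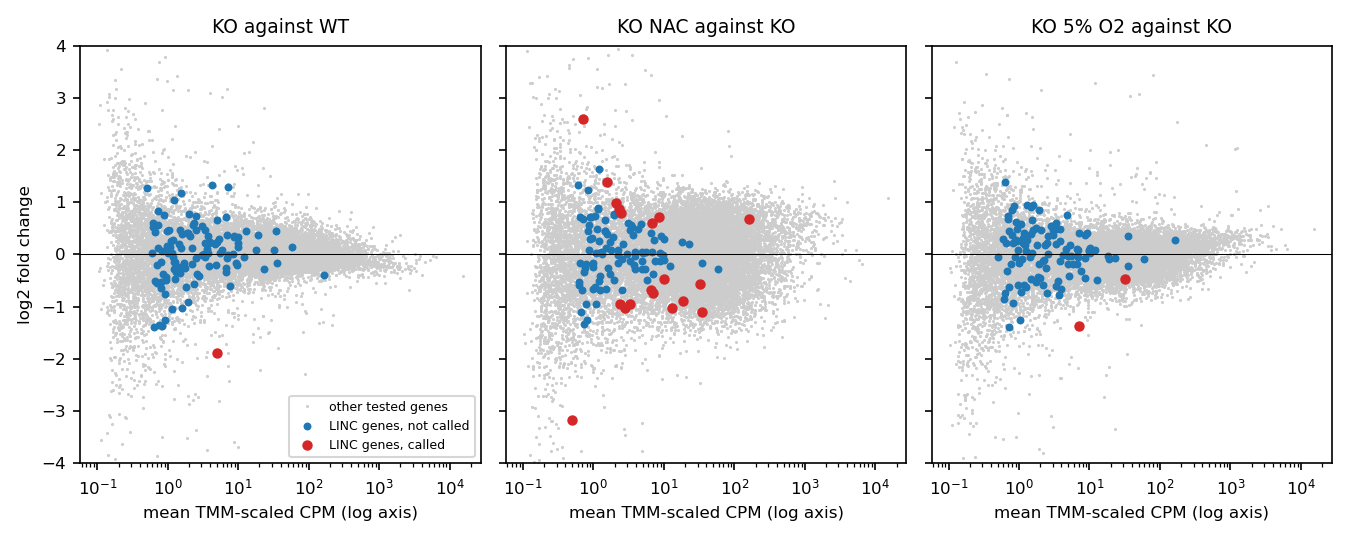
Log2 fold change against mean TMM-scaled CPM on a log axis in the 3 comparisons, for LINC genes that were called (red), LINC genes that were not (blue) and other tested genes (grey, shown between -4 and 4). Called LINC genes are 1 in KO against WT, 19 with NAC and 2 at 5% O2.

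LINC00678, on chr11:27617626-27634627 on the minus strand, was at 126 and 129 CPM in untreated KO and at 212 and 196 CPM with NAC. In WT it was at 152 and 180.4 CPM and in KO at 5% O2 at 165 and 142 CPM. The 2 untreated KO libraries were the lowest of all 8 and the 2 NAC libraries the highest. The log2 fold change with NAC was 0.68 (standard error 0.11, edgeR Benjamini-Hochberg adjusted p = 0.000329), and it was called with each library left out in turn. After removal of a trend on transcript length and GC content, as described below, it was 0.10 and was not called (edgeR, Benjamini-Hochberg adjusted p = 0.403), the highest adjusted p of its 12 alternatives, which started at 4.61e-10. BDNF, a neurotrophin and its nearest coding gene, was at 2.21 ± 0.445 CPM in KO and 1.85 ± 0.445 CPM with NAC (SD, 2 libraries each) and was not called.

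LINC00339, on chr1:22025191-22031224 on the plus strand, was at 6.91 and 7.92 CPM in untreated KO and 12.3 and 11.9 CPM with NAC. The WT libraries, at 7.43 and 7.36 CPM, and those at 5% O2, at 7.14 and 7.11 CPM, lay with untreated KO, so NAC alone stood apart. Its log2 fold change was 0.71 (standard error 0.16, edgeR Benjamini-Hochberg adjusted p = 0.00357), called with each library left out in turn and not with the trend removed (0.24, edgeR Benjamini-Hochberg adjusted p = 0.268). Over 12 alternatives, DESeq2 included, adjusted p ran from 0.00169 to 0.268 by Benjamini-Hochberg. Of its exonic bases, 51.0% overlap those of other genes, among them an antisense RNA of CDC42. LINC02246, also named ASMER1, had 6 and 16 counts in untreated KO, 64 and 51 with NAC, and 8 to 23 in the other 4 libraries. Only the NAC libraries were high, and through them alone the gene was chosen, so its difference is partly set by the choice. Its p-values use the counts that chose it and are descriptions only. The gene stays in the counts of genes called higher and of their neighbours. The log2 fold change was 2.59 (standard error 0.68, edgeR Benjamini-Hochberg adjusted p = 0.00880), and it was not called without the first KO library (2.11, edgeR Benjamini-Hochberg adjusted p = 0.0870) or with the trend removed (1.48, edgeR Benjamini-Hochberg adjusted p = 0.147, range 9.86e-05 to 0.147).

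The other 5 genes higher with NAC were less stable. LINC00526 was at 1.03 and 0.631 CPM in untreated KO and 2.95 and 1.37 CPM with NAC, where the first library was the higher. Without that library its log2 fold change of 1.39 was 0.72 (edgeR, Benjamini-Hochberg adjusted p = 0.251), without the second KO library it was 1.07 (edgeR, Benjamini-Hochberg adjusted p = 0.179), and it was called in 8 of 12 alternatives (adjusted p 0.00233 to 0.251). Its exons overlap those of LINC00667 on the other strand. LINC01806 was at 1.68 and 1.55 CPM in untreated KO and 3.52 and 2.91 CPM with NAC, and the NAC libraries were the highest of all 8. It was called in 8 of 12 alternatives, and its log2 fold change of 0.99 was 0.12 with the trend removed, 0.84 without the first NAC library, and 1.05 and 0.93 without the first and the second KO library, none of them called (edgeR, Benjamini-Hochberg adjusted p from 0.0758 to 0.795, and from 0.0149 over all alternatives). LINC00545 was at 1.44 and 1.97 CPM in untreated KO and 3.16 and 3.11 CPM with NAC, again the highest of all 8 libraries. At a log2 fold change of 0.88, the gene was not called without either KO library (0.67 and 1.12) or without the first NAC library (0.86). Nor was it called with only the 4 libraries compared (0.85) or with the trend removed (0.51). Over 12 alternatives its edgeR Benjamini-Hochberg adjusted p ran from 0.0296 to 0.215. LINC00467 was at 2.22 and 1.82 CPM in untreated KO and 3.39 and 3.64 CPM with NAC, above all other libraries. At a log2 fold change of 0.80 with edgeR, it was not called by DESeq2 (0.77), nor by edgeR without either KO library (0.95 and 0.66) or the second NAC library (0.75). It was also not called by edgeR with only the 4 libraries compared (0.78) or with the trend removed (0.50). Its Benjamini-Hochberg adjusted p ran from 0.0293 to 0.181 over 12 alternatives. LINC02315 was at 6.50 and 4.81 CPM in untreated KO and 10.1 and 7.08 CPM with NAC, and its value changed sign from 0.60 to -0.24 with the trend removed. It was also not called without the second KO library (0.40) or the first NAC library (0.32), and its edgeR Benjamini-Hochberg adjusted p ran from 0.00577 to 0.447.

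Of the genes lower with NAC, LINC00428 and LINC02693 were called in each of 12 alternatives. LINC00428, on chr13:42842412-42872744 on the minus strand, was at 46.6 and 44.2 CPM in untreated KO and at 19.6 and 22.4 CPM with NAC. In WT it was at 34.1 and 32.5 CPM and in KO at 5% O2 at 34.6 and 43.4 CPM. The untreated KO libraries were thus the highest and the NAC libraries the lowest of all 8. The log2 fold change was -1.11 (standard error 0.13, edgeR Benjamini-Hochberg adjusted p = 4.46e-05), and over the alternatives it ran from -2.03 to -1.02. LINC02693, on chr17:21528310-21551678 on the minus strand, was at 23.6 and 22.8 CPM in untreated KO and 10.9 and 14.0 CPM with NAC. WT, at 18.9 and 17.1 CPM, lay between these groups. This gave a log2 fold change of -0.90 (standard error 0.14, edgeR Benjamini-Hochberg adjusted p = 0.000363), and over the alternatives it ran from -1.60 to -0.73.

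LINC00205, on chr21:45288052-45297354 on the plus strand, was at 17.2 and 18.1 CPM in untreated KO and 8.38 and 8.88 CPM with NAC. It was at 13.1 and 12.7 CPM in WT and 12.3 and 12.9 CPM at 5% O2, so the 4 groups did not overlap except WT and 5% O2. With NAC the log2 fold change was -1.03 (standard error 0.14, edgeR Benjamini-Hochberg adjusted p = 0.000113), called with each library left out in turn. With the trend removed it was -0.36 (edgeR, Benjamini-Hochberg adjusted p = 0.0575), and over all alternatives, DESeq2 included, adjusted p ran from 2.27e-09 to 0.0575 by Benjamini-Hochberg. LINC01578 was at 34.5 and 42.5 CPM in untreated KO and 26.2 and 26.1 CPM with NAC. The 2 NAC libraries were nearly equal and below all WT and untreated KO libraries. On the log2 scale the change was -0.56 (standard error 0.13, edgeR Benjamini-Hochberg adjusted p = 0.00407), and it lost its call only without the second KO library (-0.40, edgeR Benjamini-Hochberg adjusted p = 0.0703, range 7.95e-05 to 0.0703). With the trend removed it was larger, at -1.77.

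LINC02188 was low everywhere, with 19 and 45 counts in untreated KO, 4 and 2 with NAC, 21 and 2 in WT and 38 and 20 at 5% O2. The NAC libraries were below the untreated KO libraries, and 1 WT library was as low as they were. The log2 fold change was -3.16 (standard error 0.99, edgeR Benjamini-Hochberg adjusted p = 0.0211), and without the second KO library it was -2.52 (edgeR, Benjamini-Hochberg adjusted p = 0.152) and without the second NAC library -2.91 (edgeR, Benjamini-Hochberg adjusted p = 0.0584), in a range from 0.000313 to 0.152. LINC01090 was at 2.19 and 3.06 CPM in untreated KO and 1.64 and 0.902 CPM with NAC. Its log2 fold change of -1.03 was -0.77 without the second KO library and -0.68 without the second NAC library, not called in either (edgeR, Benjamini-Hochberg adjusted p = 0.170 and 0.0975, range from 0.00292 to 0.170). LINC01128 was at 7.78 and 8.94 CPM in untreated KO and 5.79 and 4.17 CPM with NAC, and its log2 fold change of -0.74 was -0.64 without the second KO library and -0.41 with the trend removed, not called in either (edgeR, Benjamini-Hochberg adjusted p = 0.0842 and 0.145, range 0.00156 to 0.145). Without the first NAC library LINC01090 was at -1.54 and LINC01128 at -1.004, both called. In all of these genes the NAC libraries lay below those of untreated KO.

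LINC01061 was at 2.90 and 3.42 CPM in untreated KO and 1.33 and 1.97 CPM with NAC. At a log2 fold change of -0.94, the gene was not called without either KO library (-1.06 and -0.82) or the first NAC library (-0.69), with edgeR Benjamini-Hochberg adjusted p from 0.00773 to 0.137 over its alternatives. LINC00265 was at 5.04 and 4.15 CPM in untreated KO and 1.80 and 3.01 CPM with NAC, again without overlap. A log2 fold change of -0.94 became -0.80 without the first KO library and -0.61 without the first NAC library, not called in either, with edgeR Benjamini-Hochberg adjusted p from 0.00175 to 0.118. The remaining genes called lower, LINC01521 and LINC01278, had log2 fold changes of -0.68 and -0.47 and were named after their values were seen. LINC01521 was at 7.70 and 9.33 CPM in untreated KO and 4.02 and 6.68 CPM with NAC, and LINC01278 at 11.3 and 10.2 CPM and 8.06 and 7.38 CPM. LINC01521 was called in 5 of 12 alternatives (edgeR, Benjamini-Hochberg adjusted p 0.00253 to 0.256) and, with a library left out, only without the second NAC library (-1.08), against -0.35 without the first and -0.81 and -0.53 without the KO libraries. LINC01278 was called in 8 of 12 (edgeR, Benjamini-Hochberg adjusted p 0.000306 to 0.176) and not without the KO libraries (-0.40 and -0.55) or the second NAC library (-0.41), and with the trend removed it was -1.33.

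With NAC, fold changes went with the base composition of transcripts. Across 15396 tested genes with a known transcript, the log2 fold change had a Spearman's rho of -0.49 with GC content and -0.25 with length. Across 105 of the 114 genes it was -0.26 with GC content and -0.02 with length. At 5% O2 it was -0.33 with GC content and -0.24 with length over all genes, and -0.14 and -0.03 over the LINC genes. In KO against WT it had the other sign over all genes, with 0.14 for GC content and 0.22 for length, and was -0.04 and 0.27 over the LINC genes. Genes are not independent replicates and share the libraries, so these values are descriptions. A smooth trend of each library on length and GC content was therefore removed as an alternative, which covered 92.1% of the 114 genes. It gave 2062 higher and 1821 lower genes over all, and 1 higher and 13 lower of the 105 LINC genes. Of 18 called LINC genes with a known transcript, 6 were called with and without the removal, all lower with NAC. These were LINC00428, LINC01090, LINC02693, LINC01278, LINC01578 and LINC02188, whose choice itself favours a lower level with NAC. The other 12 were called only without the removal, and 8 genes only with it. Their values did not all become small, since that of LINC00526 was 1.39 without the removal and 1.35 with it (edgeR, Benjamini-Hochberg adjusted p = 0.0501, range over alternatives 0.00233 to 0.251). The median log2 fold change of the LINC genes was then -0.28, against -0.0015 for all genes. The calls of single genes higher with NAC therefore hold for the fit without the removal. Values with NAC of coding neighbours, other noncoding classes, exosome genes and genes with newer symbols such as NORAD are from the fit without the removal only. Which of the fits is nearer to the cells' RNA was not tested.

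**Figure D4:**
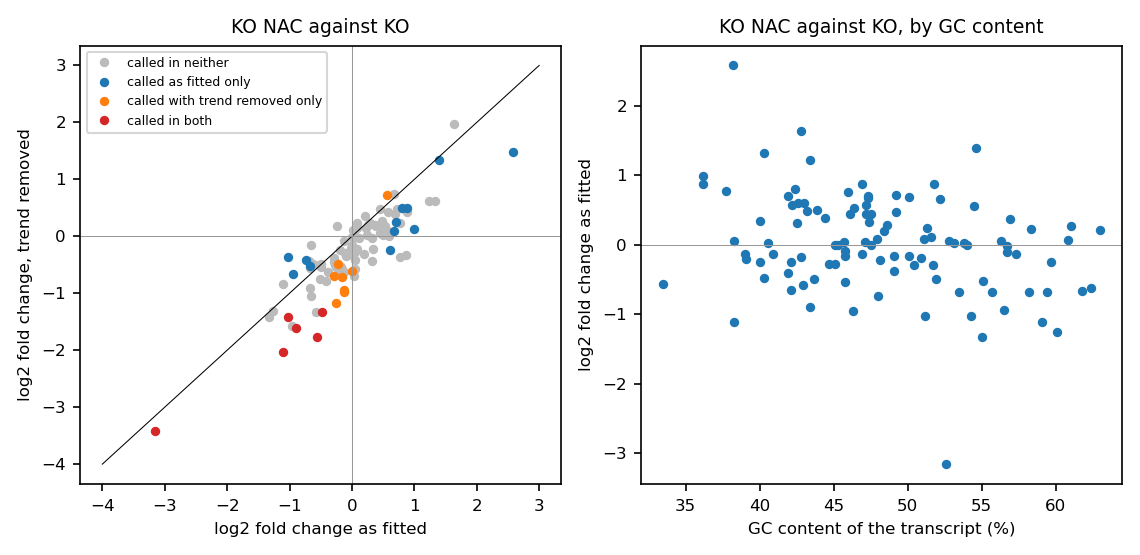
Left, log2 fold change with NAC of 105 LINC genes as fitted (horizontal axis) and after removal of the trend on GC content and length (vertical axis), coloured by where the gene was called, with a line of equal values. Right, the fold change as fitted against the GC content of the transcript in percent. Most points lie below the line, and all 6 genes called in both fits are below 0.

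The coding genes nearest to the called LINC genes were compared in the fit without the trend removed only. Of the 19 LINC genes called with NAC, 16 had a nearest coding gene that was tested. Of these 16 neighbours, 10 were called, 11 had a log2 fold change of the same sign as the LINC gene, and 7 were both called and of the same sign. Over all of the 114 genes, 43 of 92 tested neighbours were called, 51 had the same sign, and 23 were both called and of the same sign. Of all tested genes 44.6% were called with NAC, and 59.9% of those that averaged at least 200 counts. The share called among the 92 neighbours was close to that of all tested genes and is no feature of these neighbours. CHD2, whose body begins 1577 bases beyond LINC01578, was at 54.9 ± 8.07 CPM in KO and 27.6 ± 7.15 CPM with NAC (SD, 2 libraries each). It thus changed in the same direction as LINC01578, by -0.99 on the log2 scale (edgeR, Benjamini-Hochberg adjusted p = 0.000544). Of the exonic bases of LINC01578, 7.27% overlap exons of other genes, CHD2 on the same strand among them. Reads there could not be assigned with certainty. GULP1, an adapter protein of engulfment that lies 4183 bases from LINC01090 on the other strand, changed in the opposite direction, from 81.6 ± 3.47 to 181 ± 27.2 CPM (SD, 2 libraries each, log2 fold change 1.15, edgeR Benjamini-Hochberg adjusted p = 2.51e-05). RALA, a small GTPase that lies 25448 bases from LINC00265, was also opposite to it (0.64, edgeR Benjamini-Hochberg adjusted p = 0.000382). PATZ1, which begins 413 bases from LINC01521 on the other strand, was lower like it (-0.59, edgeR Benjamini-Hochberg adjusted p = 0.00509). TANK, an adapter of NF-kB signalling, NRIP1, a nuclear receptor corepressor, and MEDAG were higher, as were LINC01806, LINC02246 and LINC00545. They lie 8509, 42567 and 22876 bases from these genes, and LINC02246 was chosen through its NAC libraries alone. The log2 fold changes of the 3 coding genes were 0.88, 0.48 and 1.39 (edgeR, Benjamini-Hochberg adjusted p = 0.00122, 0.0203 and 0.0143). MEDAG was at 1.44 and 1.07 CPM in untreated KO and 4.57 and 1.97 CPM with NAC, where the first library was the higher. POFUT2, which adds fucose to secreted proteins and begins 157 bases from LINC00205 on the other strand, was at 33.7 ± 0.543 CPM in KO and 31.5 ± 5.30 CPM with NAC (SD, 2 libraries each) and was not called.

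**Figure D5:**
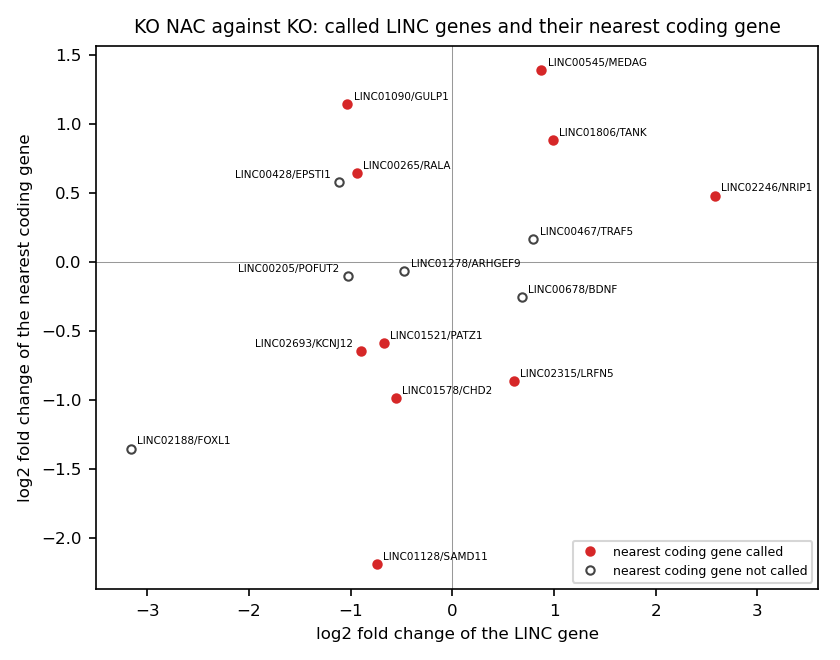
Log2 fold change with NAC of the LINC genes called in that comparison (horizontal axis) and of their nearest coding gene (vertical axis), for the 16 pairs in which the coding gene was tested, with filled points where it was called. The 7 called pairs of the same sign lie to the upper right and lower left of 0, and the called GULP1, RALA and LRFN5 to the upper left and lower right.

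Of the 114 genes, 80 had a promoter in RefSeq (GRCh38.p14), taken from 250 bases before to 50 bases after a start. That start is not always the first base of the gene. The promoters of these genes held a median of 20.5 CG dinucleotides, against 14 in all 35114 promoters. Motifs were searched on both strands, where matches may overlap. The core of the hypoxia response element, ACGTG, was in 26.2% of them and in 21.4% of all promoters, and its variant GCGTG in 33.8% and 36.5%. The core of the antioxidant response element, TGACNNNGC, was in 15.0% and 13.3%, and TATAAA in 11.2% and 11.5%. Of the 19 genes called with NAC, 11 had a promoter, of which 3 held ACGTG, 2 GCGTG, 0 TGACNNNGC and 3 TATAAA. A match is a description and no match says only that the letters are not in the window. Promoters of 4 of these genes, a pair higher and a pair lower with NAC, are printed below as examples, with 16 to 40 CG dinucleotides in a range from 2 to 40 over the 11, and with ACGTG or GCGTG on either strand in capitals. The promoter of LINC00339 is chr1:22025254-22025553 and that of LINC01806 is chr2:161244489-161244788, with 2 matches of TATAAA on either strand. The promoter of LINC01578 is chr15:92883046-92883345, with 40 CG dinucleotides and none of the 4 motifs, and that of LINC00265 is chr7:39733318-39733617, with 1 match of ACGTG. All 4 are on the plus strand. Those of LINC00339 and LINC01578 lie within the genes, which begin at 22025191 and 92882843 by RefSeq. The start used for these is thus not the first base of the gene.
LINC00339: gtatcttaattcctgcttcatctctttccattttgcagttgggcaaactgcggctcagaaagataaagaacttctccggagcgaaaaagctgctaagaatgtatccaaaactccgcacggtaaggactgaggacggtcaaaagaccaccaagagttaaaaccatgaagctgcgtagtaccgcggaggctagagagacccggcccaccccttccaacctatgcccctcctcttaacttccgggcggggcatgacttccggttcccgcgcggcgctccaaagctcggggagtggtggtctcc
LINC01806: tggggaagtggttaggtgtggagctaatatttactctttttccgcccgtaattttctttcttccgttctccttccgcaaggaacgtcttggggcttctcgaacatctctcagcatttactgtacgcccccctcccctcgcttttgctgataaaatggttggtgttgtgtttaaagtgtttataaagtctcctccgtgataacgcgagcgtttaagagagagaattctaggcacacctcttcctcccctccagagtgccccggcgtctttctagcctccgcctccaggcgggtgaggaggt
LINC01578: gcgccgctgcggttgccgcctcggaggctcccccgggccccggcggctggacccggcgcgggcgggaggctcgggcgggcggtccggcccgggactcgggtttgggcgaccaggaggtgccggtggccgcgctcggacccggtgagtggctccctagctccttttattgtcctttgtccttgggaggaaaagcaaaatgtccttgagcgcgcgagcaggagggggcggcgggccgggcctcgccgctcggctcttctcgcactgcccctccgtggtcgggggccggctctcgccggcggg
LINC00265: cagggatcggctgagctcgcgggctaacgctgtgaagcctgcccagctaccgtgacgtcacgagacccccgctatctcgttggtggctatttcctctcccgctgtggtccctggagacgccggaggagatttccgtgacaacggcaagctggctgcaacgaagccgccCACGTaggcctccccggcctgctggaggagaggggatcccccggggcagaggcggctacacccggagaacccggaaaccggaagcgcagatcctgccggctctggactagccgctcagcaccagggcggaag

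In KO at 5% O2 against KO at normal O2, which asks what lower oxygen changes in KO cells, LINC01000 and LINC01578 were called lower and no LINC gene higher. By edgeR these were 0 higher and 2 lower of 114 (1.75%), against 586 higher and 657 lower of all tested genes (7.81%). At an unadjusted p under 0.05, 8 were higher and 6 lower (12.3%), against 24.8% of all genes, and DESeq2 called 1 higher and 3 lower, against 970 and 985 of all genes. By the study's criteria 0 were higher and 2 lower (1.75%), against 2.02%, and at an adjusted p under 0.01 none was called by edgeR, against 0.854% of all genes. LINC01000 was at 11.3 and 10.8 CPM at normal O2 and at 5.42 and 3.12 CPM at 5% O2. The levels at 5% O2 were close to those of WT, at 3.66 and 5.37 CPM, while the NAC libraries, at 5.51 and 11.7 CPM, differed from each other. At 5% O2 the log2 fold change was -1.36 (standard error 0.35, edgeR Benjamini-Hochberg adjusted p = 0.0363). LINC01000 has no strand or exon model in the annotation used. LINC01578 was at 34.5 and 42.5 CPM at normal O2 and 26.4 and 29.6 CPM at 5% O2, below every WT and untreated KO library. That is a log2 fold change of -0.46 (standard error 0.13, edgeR Benjamini-Hochberg adjusted p = 0.0497), or -0.92 with the trend removed, and CHD2 beside it was not called (-0.38, edgeR Benjamini-Hochberg adjusted p = 0.175).

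Neither call at 5% O2 held with a library left out, and calls over all genes also became fewer in those fits. Over all genes, 29 were higher and 12 lower without the first KO library at normal O2, 42 and 46 without the second, 31 and 5 without the first library at 5% O2, and 238 and 275 without the second. For LINC01000, the log2 fold change was -1.33 and -1.40 without the first and the second KO library at normal O2 and -1.83 and -1.03 without those at 5% O2, with edgeR Benjamini-Hochberg adjusted p from 0.172 to 0.209 in these fits and from 2.44e-07 over all alternatives. For LINC01578 the values were -0.61, -0.30, -0.38 and -0.55 in the same order, with edgeR Benjamini-Hochberg adjusted p from 0.108 to 0.379 in these fits and from 0.00650 over all alternatives. LINC00205 lay just beyond the threshold, at 17.2 and 18.1 CPM at normal O2 and 12.3 and 12.9 CPM at 5% O2 (log2 fold change -0.48, edgeR Benjamini-Hochberg adjusted p = 0.0502), and it was named for NAC. It was called lower at 5% O2 by DESeq2, with a filter on a mean of 10 counts and with only the 4 libraries compared, and was -0.18 with the length and GC trend removed. With that length and GC trend removed, calls at 5% O2 over all genes went from 586 higher and 657 lower to 215 higher and 57 lower of 15396, and 1 of 105 LINC genes, LINC01578, was called. The median log2 fold change of the 114 genes was 0.07, against -0.0003 for all genes, and 0.01 without the first library at 5% O2. Whether NAC and 5% O2 differ in their effect on these genes was not tested.

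Other classes of noncoding genes were counted by their symbols with the same fit of all 8 libraries, without the length and GC trend removed. Of 367 tested antisense genes, 0 were called higher and 1 lower in KO, 23 higher and 15 lower with NAC, and 1 higher and 1 lower at 5% O2. In KO against WT, 9 of them were higher and 11 lower at an unadjusted p under 0.05. Of 24 host genes of small nucleolar RNAs (SNHG), 7 were higher and 1 lower with NAC, with a median log2 fold change of 0.34, and 0 were called in the other comparisons by edgeR. At an unadjusted p under 0.05, 1 SNHG gene was higher and 2 lower in KO, and 3 higher and 1 lower at 5% O2. Of 16 host genes of microRNAs, 0 were called in KO, where 3 were higher at an unadjusted p under 0.05, 1 was higher and 2 lower with NAC, and 1 was higher at 5% O2. None of 10 intronic or overlapping genes was called by edgeR, nor passed an unadjusted p under 0.05 in any comparison. The share called with NAC was thus 10.4% for antisense genes and 33.3% for SNHG genes, whose median levels were 0.712 and 9.94 CPM, against 16.7% and 2.14 CPM for the LINC genes and 44.6% and 18 CPM for all tested genes. In KO and at 5% O2, 1.96% and 7.81% of all tested genes were called. At an unadjusted p under 0.05, 17.6% of all tested genes passed in KO and 24.8% at 5% O2. In KO this was 5.45% of antisense genes, 12.5% of SNHG genes and 18.8% of host genes of microRNAs. At 5% O2 it was 16.7% of SNHG genes.

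The nuclear RNA exosome and its adapters degrade many noncoding transcripts, and 22 of their genes were listed. None was called in KO against WT by edgeR, where the median log2 fold change was -0.09. At an unadjusted p under 0.05, 1 was higher and 3 lower in KO (18.2%, against 17.6% of all tested genes). With NAC 13 were higher and 4 lower (77.3%), with a median of 0.36, against 44.6% of all tested genes and 59.9% of those that averaged at least 200 counts, as did all of the 22. EXOSC8 and EXOSC9, subunits of the exosome ring, had log2 fold changes of 1.03 and 0.84 with NAC (edgeR, Benjamini-Hochberg adjusted p = 3.73e-05 and 0.000158). PABPN1 and ZC3H18, which link the exosome to polyadenylated and capped transcripts, had log2 fold changes of -1.25 and -0.88 (edgeR, Benjamini-Hochberg adjusted p = 5.31e-05 and 9.41e-05). At 5% O2, 3 were higher and 1 lower (18.2%, against 7.81% of all tested genes), with a median of 0.12, and the lower gene was again PABPN1 at -0.73 (edgeR, Benjamini-Hochberg adjusted p = 0.0169). The values of the exosome genes are from the fit without the length and GC trend removed only. Whether these genes and the LINC genes are related was not tested.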

How the data were processed

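RNA-sequencing libraries were trimmed, aligned to hg38 with HISAT2 and counted per gene with featureCounts by the authors, and the deposited count of each gene is not normalized. The annotation is not given in the sources used here, and the default of featureCounts disregards strand and reads with several matches. Of 12 labelled samples, 8 libraries were analysed, grouped by their labels. Genes with low counts were removed by filterByExpr at its minimum of 10, and counts were TMM-scaled and compared by quasi-likelihood F-tests (edgeR 4.0.16, R 4.3.3) with 1 term per group, 4 residual degrees of freedom and a biological coefficient of variation of 13.7%. P-values were adjusted by Benjamini-Hochberg over 15916 genes. Standard errors were taken as |log2 fold change| over the root of F. Named genes are, per comparison, up to 8 called LINC genes with the largest change in each direction whose groups do not overlap, the 10 highest per kb, those of a list with a described role, and their nearest coding genes. The members and lists were chosen with earlier results of these data known. Alternatives used DESeq2 1.42.0, RLE and upper quartile scaling, other filters, a replicate block, the 4 libraries compared, each library left out, a length and GC trend (mgcv 1.9.3), other call rules and subsets. The computations were tested on simulated data. Symbols, gene positions and promoters are from RefSeq GRCh38.p14 and exons from GENCODE v44.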

Additional observations from a re-analysis of the deposited data

How the results depend on the processing

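LINC02575 in KO, and LINC00428 and LINC02693 with NAC, were called in every alternative fit tried. All called genes but LINC02315, which was -0.24 with the length and GC trend removed, kept their direction in every alternative. In KO against WT, 0 genes higher and 1 lower became 3 and 2 with DESeq2, 4 and 2 with a filter of 1 count in any library, 4 and 3 with only the 4 libraries compared (all tested genes, from 213 and 99 to 524 and 300, 782 and 470, and 738 and 386), 3 and 4 by the study's criteria, and 1 higher with the trend removed. The median of 0.07 was 0.14 with the trend removed and 0.11 in the 65 genes averaging at least 60 counts. With NAC, 8 higher and 11 lower became 4 and 6 with only the 4 libraries compared (all genes, from 3785 and 3315 to 3190 and 2965), 3 and 5 by the study's criteria and at an adjusted p under 0.01, 1 higher with the trend removed, and 7 lower in the 88 genes with under 10% of words on alternate scaffolds. The median of 0.03 was -0.28 with the trend removed. At 5% O2, 0 higher and 2 lower became 1 higher with DESeq2 and with the filter of 1 count, 3 higher with only the 4 libraries compared (all genes, from 586 and 657 to 970 and 985, 1039 and 1181, and 1466 and 1543), 1 lower with upper quartile scaling, with the trend removed and in the 88 genes, and 0 lower at an adjusted p under 0.01. The median of 0.07 was -0.0507 with the trend removed and -0.02 in the 65 genes. Fits of fewer libraries estimate the spread from fewer samples, and LINC01000 and LINC01061 have no transcript length and were not tested with the trend removed. The cause of the changes between fits was not tested.

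When each library was left out in turn, the lone library assumed to vary like the other groups, 0 genes were higher and 1 lower in KO (all genes, from 29 to 33 higher and from 34 to 49 lower), from 3 to 11 higher and from 4 to 13 lower with NAC, and 0 higher and 0 lower at 5% O2. The medians ran from 0.0322 to 0.12, from -0.06 to 0.0575 and from 0.0065 to 0.072. Of the 19 genes called with NAC, 5 were called with each library left out, namely LINC00339, LINC00678, LINC00428, LINC00205 and LINC02693. With the coding start within 50 kb as the neighbour rule, 4 of 5 neighbours were called with NAC in place of 10 of 16, against 44.6% of all tested genes.

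The replicate numbers did not pair the libraries, since deviations from the group means of libraries with the same number correlated from -0.023 to 0.082. With the number as a block, 0 higher and 1 lower, 8 and 11, and 0 and 2 genes were called in the 3 comparisons, and the medians were 0.05, 0.01 and 0.07. With 2 libraries per group and a median standard error of 0.36, changes several times that size could be missed. LINC00664 at 1.32 and LINC01000 at 1.29 were not called in KO by the edgeR fit of all 8 libraries. Both were called by DESeq2, with a filter of 1 count in any library and with only the 4 libraries compared. Genes near 30 counts are limited most.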
